A study of Mus musculus with 12 samples.

Results

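The 10 genes described here mark macrophages and granulocytes, and they were read in 12 bulk RNA libraries from thymus and from T-cell lymphoma of mice. They were picked by symbol from the 50600 gene IDs of each count table, with no measured value in the rule. Of these, 6 are markers of macrophages (Csf1r, Cd68, C1qa, C1qb, Mrc1 and Adgre1), a pair marks granulocytes (S100a8 and S100a9), and Lyz2 and Itgam are used by both kinds of cell. The libraries came from 4 groups of 3 mice each. Ctrl mice carried a loxP-flanked Dnmt1 gene without Cre recombinase, and KO mice lost Dnmt1 in T cells through CD4-CRE. ALK mice expressed the human NPM-ALK fusion from the Cd4 enhancer and promoter and gave T-cell lymphoma cells, whereas ALKKO mice carried both the fusion and the CD4-CRE deletion and gave thymocytes, as did Ctrl and KO. The labels gave ages of 20 to 25 wk for Ctrl, 20 to 21 wk for KO, 22 to 31 wk for ALK and 19 to 25 wk for ALKKO. All mice had a mixed genetic background and were male, apart from the female that gave the KO2 library, and the number after a group name is the replicate number of the labels. RNA was taken from homogenized tissue, so a marker of myeloid cells reads how much of their RNA was in the piece. Fewer cells of a type and less RNA per cell cannot be told apart in such samples. The question was how the level of these genes differed between control thymus, thymus without Dnmt1, NPM-ALK tumors and NPM-ALK thymus without Dnmt1.

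Macrophages live in the thymus and in tumors, depend on signaling through the receptor Csf1r, engulf dying cells and make the complement protein C1q. Thymic macrophages clear the many thymocytes that die during selection. Granulocytes, mostly neutrophils, arrive from the bone marrow through the blood and carry large amounts of the S100a8 and S100a9 proteins, which pair to form calprotectin. Both NPM-ALK under the Cd4 promoter and CD4-CRE are meant to act in T cells rather than in these cells.

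Gene counts summed to 12473857 to 18864327 per library and were scaled by edgeR's TMM method to CPM, the reads of a gene relative to all gene reads of its library. In a single library the floor of 3 reads corresponded to 0.159 to 0.241 CPM before this scaling. Dnmt1, the deleted gene, had 399 to 486 CPM in Ctrl, 206 to 243 CPM in KO, 378 to 787 CPM in the tumors and 205 to 244 CPM in the ALKKO libraries. Alk was read at 34.8 to 54.9 CPM in the 6 libraries with the transgene and at 0.107 to 0.431 CPM in the 6 without it. The KO2 library stood apart from the other 8 thymus libraries: its summed CPM of 12 thymocyte genes was 4138, against 9114 to 12097 in those 8, and its sum of 8 B-cell genes was 2437, against 70.5 to 126. Values without KO2 are given beside the results that it moved most. Cd4 was at 27.5 to 116 CPM in the 3 libraries labelled as lymphoma, against 577 to 1407 CPM in the thymus libraries.

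Itgam, the alpha chain of the CD11b/CD18 integrin, was listed at 0 reads in all 12 libraries, so no level is given for it and 9 of the 10 genes entered the tests. It lies on chromosome 7 from 128062640 to 128118491 of GRCm38, and 68.7% of its exon bases are also exon of Gm49368 on the same strand, which had 0 to 11 reads per library. Other genes were at 0 in every library too. Rag1, a recombinase that developing thymocytes use, was at 0, while Rag2 had 247 to 422 CPM in the thymus libraries other than KO2. Lilrb4a, an inhibitory receptor of myeloid cells, was at 0 as well. The share of exon bases that another gene on the same strand also holds was 1.21% for Rag1 and 35.3% for Lilrb4a. The cause of these zeros was not tested. Itgb2, the beta chain that pairs with Itgam, was well detected and is described with the partners of the markers.

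The 9 detected genes had exons that overlap no other gene on their strand. Levels were compared between genes as CPM per kilobase of exon, taking the union of annotated exons. In Ctrl, Lyz2, the lysozyme of macrophages and granulocytes, was the highest at 237 ± 35.2 CPM per kilobase (SD, n = 3). The complement chains followed, C1qb at 112 ± 3.96 and C1qa at 103 ± 6.45 CPM per kilobase, and their ranges overlapped. Cd68, a lysosomal glycoprotein, was next at 33.6 ± 2.93 CPM per kilobase. S100a9 stood at 15.4 ± 2.20, Csf1r at 9.27 ± 0.286, Adgre1 at 7.09 ± 0.435, S100a8 at 7.02 ± 0.367 and Mrc1 at 4.10 ± 0.161 CPM per kilobase. In Ctrl only C1qb and C1qa, and Adgre1 and S100a8, had overlapping ranges among neighbors in this order. The order in ALK tumors kept Lyz2, C1qb, C1qa and Cd68 on top and placed S100a9, at 1.25 ± 1.90 CPM per kilobase, and S100a8, at 0.758 ± 0.913, at the bottom. The Ctrl mice were close to each other, with a coefficient of variation of 3.08% for Csf1r and at most 14.9% for the 9 genes, that of Lyz2. Within KO it ran from 30.3% for Cd68 to 141% for S100a9, and within ALK from 24.5% for Mrc1 to 153% for S100a9.

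**Figure D1:**
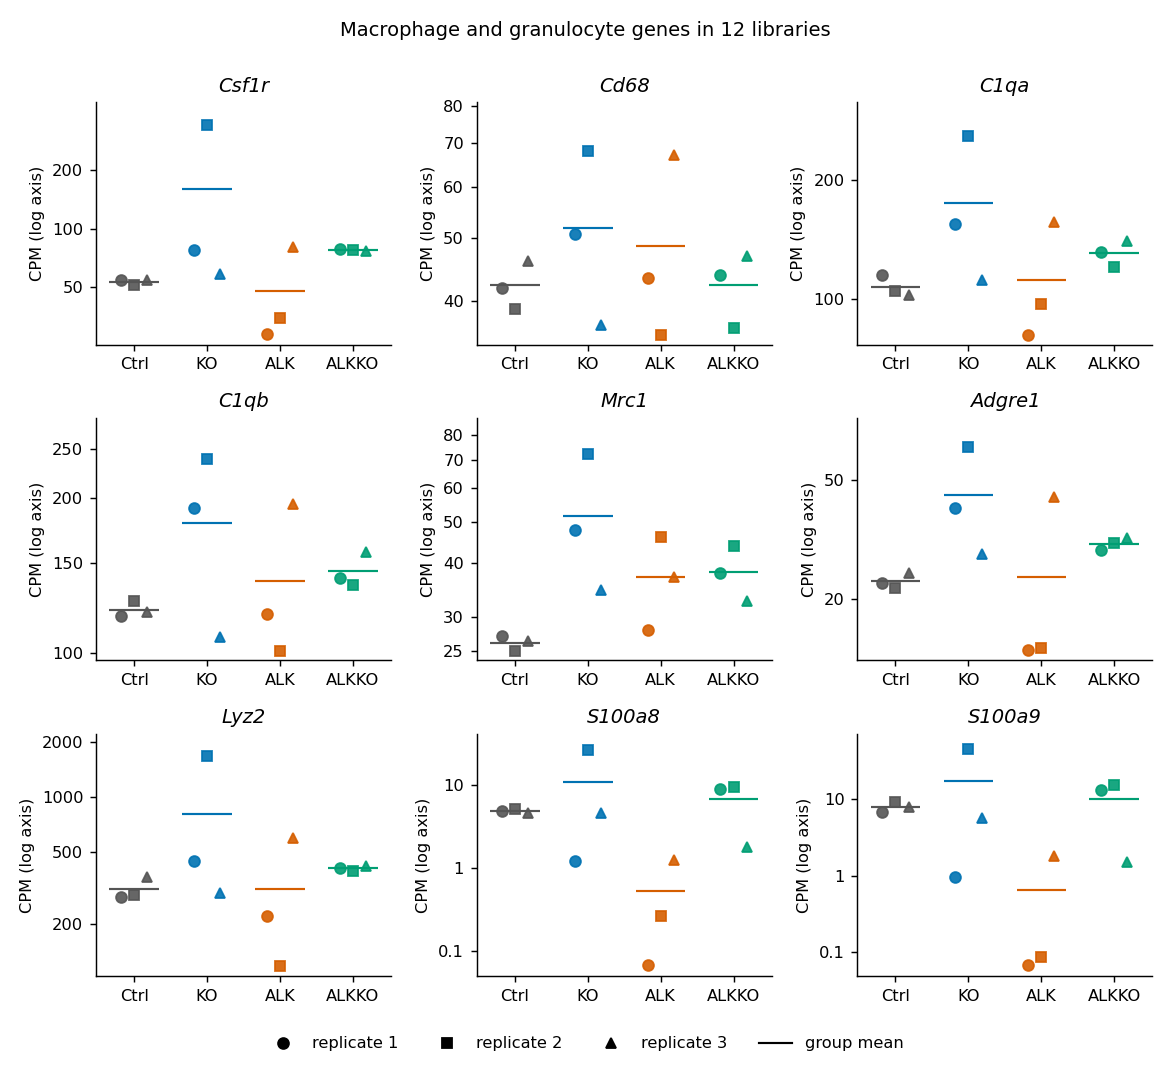
Level of the 9 detected genes in each library, as CPM on a log axis, by group, with 1 symbol per replicate and a line at the group mean. KO2 (blue square) is the highest library for every gene, and the 3 ALK libraries (orange) lie below the 3 Ctrl libraries for S100a8 and S100a9.

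The level of the macrophage markers in the NPM-ALK tumors did not differ from control thymus beyond the wide spread between tumors. None of the 6 macrophage genes nor Lyz2 was called in ALK against Ctrl. A gene counts as called where the quasi-likelihood test of edgeR gave a Benjamini-Hochberg adjusted p below 0.05 and the level changed by more than 1 on the log2 scale. This rule called 20.4% of the 16052 genes tested, 8.41% higher and 12% lower. The log2 fold changes of the 7 genes ran from -0.15 to 0.51, with adjusted p from 0.169 to 1 (edgeR), beside a median of 0.05 over all genes tested. At an unadjusted p under 0.05, 0 of the 7 passed, whereas S100a8 and S100a9 did, beside 20.9% of all genes on the lower side. DESeq2's Wald test also called 0 of the 7, with a lowest adjusted p of 0.196.

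Csf1r, the receptor for CSF1 and IL-34, had 54.7, 51.6 and 54.3 CPM in Ctrl and 28.8, 35.0 and 80.8 CPM in ALK. ALK1 and ALK2 thus lay below every Ctrl library and ALK3 above every one. Its fitted log2 fold change was -0.15 (SE 0.59, 95% interval -1.45 to 1.149). Adgre1, which encodes the macrophage surface protein F4/80, split in the same way, with 22.6, 21.7 and 24.5 CPM in Ctrl and 13.5, 13.8 and 43.8 CPM in ALK. Its log2 fold change was 0.05 (SE 0.44, 95% interval -0.92 to 1.01). Without ALK3, Adgre1 was called lower in ALK than in ALKKO (log2 fold change -1.17, adjusted p = 0.0159, edgeR) and than in the 3 thymus groups (-1.21, adjusted p = 0.0065, edgeR), but not than in Ctrl. Mrc1, the mannose receptor CD206, did not follow this split: it had 27.02, 25.0 and 26.3 CPM in Ctrl and 28.0, 46.2 and 37.2 CPM in ALK, with all tumors above all controls. Of all genes tested, 21.3% had all 3 ALK libraries above all 3 Ctrl libraries, and Mrc1 did not pass the test (log2 fold change 0.51, SE 0.26, adjusted p = 0.169, edgeR).

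Cd68 had 41.8, 38.8 and 46.1 CPM in Ctrl and 43.4, 35.4 and 67.2 CPM in ALK, so the groups overlapped. C1qa had 115, 105 and 103 CPM in Ctrl and 81.4, 97.1 and 157 CPM in ALK. C1qb had 118, 126 and 120.1 CPM in Ctrl and 119, 101 and 195 CPM in ALK. For both complement chains ALK3 alone was above the control range. The 95% intervals of the log2 fold change reached from -0.38 to 0.79 for Cd68, from -0.60 to 0.72 for C1qa and from -0.45 to 0.83 for C1qb. These intervals leave out a change of 2-fold in either direction. Those of the other 4 genes reach past it on at least 1 side, and that of Lyz2 ran from -1.44 to 1.44.

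Lyz2 had 281, 289 and 365 CPM in Ctrl and 222, 118 and 596 CPM in ALK, and the means of 312.03 ± 46.3 and 312.19 ± 251 CPM were alike while the tumors spread 5.04-fold. ALK3 was the highest tumor for Csf1r, Cd68, C1qa, C1qb, Adgre1 and Lyz2. It came from the oldest mouse of the series, at 31 wk, against 24 wk for ALK1 and 22 wk for ALK2. Among the tumors, a higher age and this 1 mouse cannot be told apart. Without ALK3, 6 of the 7 log2 fold changes of the macrophage genes and Lyz2 in ALK against Ctrl were negative, with a median of -0.28 in place of 0.06, and 0 of the 7 was called. ALK3 also had the highest sums of 10 dendritic cell genes (213 CPM, against 51.5 and 74.5 CPM in ALK1 and ALK2) and of 7 red blood cell genes (750.2 CPM, against 202 and 27.4 CPM). Their part in the values of ALK3 was not tested.

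The granulocyte pair was low in the tumors. S100a8 stood at 4.85, 5.14 and 4.63 CPM in the Ctrl libraries, at 1.22, 26.5 and 4.64 CPM in KO, at 0.0671, 0.262 and 1.25 CPM in the tumors and at 8.82, 9.495 and 1.79 CPM in ALKKO. The tumor values rest on 1, 3 and 16 reads. S100a9 stood at 6.91, 9.21 and 8.07 CPM in the Ctrl libraries, at 0.953, 45.1 and 5.65 CPM in KO, at 0.0671, 0.0872 and 1.80 CPM in the tumors and at 13.3, 15.6 and 1.53 CPM in ALKKO. Its tumor values rest on 1, 1 and 23 reads. All 3 tumors were below all 3 Ctrl libraries for both genes, as they were for 25.1% of all genes tested. They were not below all thymus libraries: KO1 had less S100a8 and S100a9 than ALK3, and ALKKO3 had less S100a9 than ALK3.

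Against the mean of the 3 thymus groups, S100a8 was called lower in ALK by -3.74 on the log2 scale (SE 1.14, adjusted p = 0.0243, edgeR), a 13.3-fold lower level. S100a9 was called lower with -4.10 (SE 1.42, adjusted p = 0.0405, edgeR), or 17.1-fold. These 2 of the 9 genes stand beside 15.7% of all genes called lower in this comparison. Against ALKKO alone, S100a8 was called lower (log2 fold change -3.66, SE 1.22, adjusted p = 0.047, edgeR), whereas S100a9 did not pass (-3.95, SE 1.51, adjusted p = 0.0734, edgeR), beside 12.6% of all genes called lower. Against Ctrl alone neither passed, with S100a8 at -3.20 (SE 1.21, adjusted p = 0.0683, edgeR) and S100a9 at -3.62 (SE 1.49, adjusted p = 0.0904, edgeR). DESeq2's Wald test called both genes lower in all 3 of these comparisons. The calls turned on single libraries. Without KO2, both genes were called in all 3 comparisons, with log2 fold changes of -3.23 for S100a8 and -3.65 for S100a9 against Ctrl. Without ALK3, both were again called in all 3. The remaining tumors then had at most 3 reads of either gene, so that S100a8 was at least 21.1-fold and S100a9 at least 34.9-fold lower than in Ctrl, with the Ctrl mean set against the mean floor of 3 reads per library in these tumors. By contrast, without ALK1 or without ALK2 neither gene was called in any of them. S100a8 against ALKKO was also not called without any 1 of the Ctrl libraries, KO3, ALKKO1 or ALKKO2. Against the 3 thymus groups 1 of the genes was still called without any 1 of the Ctrl libraries, ALKKO1 or ALKKO2. Without KO1, 1 was called against Ctrl and both against ALKKO.

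S100a8 and S100a9 are neighbors on chromosome 3, 22596 bases apart and on opposite strands. Their levels varied together over the libraries: S100a8 was 0.558 to 1.28 times S100a9 in CPM (median 0.68) in the 10 libraries with over 3 reads of each, while S100a9 itself spread 47.4-fold within KO. C1qa and C1qb, 9729 bases apart on chromosome 4, had a ratio of 0.683 to 1.08 (median 0.89) over all 12 libraries. The bases before the start of S100a8, S100a9 and C1qb are shown, 5′ to 3′ on the strand of the gene, from RefSeq windows on GRCm38.p6. No window was at hand for C1qa, so the C1q pair is not compared. Whether sequence plays a part in the joint movement of a pair was not tested. For S100a8 only the part outside the annotated gene is given. Capitals mark GCAAT, part of the palindrome bound by C/EBP factors, and GAGGAA, a core bound by PU.1 and other ETS factors, or their reverse complements ATTGC and TTCCTC.
S100a8 (chr3:90668821-90668977, plus strand): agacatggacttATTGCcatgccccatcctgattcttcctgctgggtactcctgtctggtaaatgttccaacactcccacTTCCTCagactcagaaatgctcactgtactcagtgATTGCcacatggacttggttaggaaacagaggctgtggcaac
S100a9 (chr3:90695722-90695971, minus strand): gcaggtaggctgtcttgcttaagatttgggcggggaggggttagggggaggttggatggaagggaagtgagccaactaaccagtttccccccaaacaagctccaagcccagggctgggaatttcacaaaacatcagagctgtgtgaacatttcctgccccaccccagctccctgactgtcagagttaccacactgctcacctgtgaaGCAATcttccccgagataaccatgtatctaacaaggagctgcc
C1qb (chr4:136886201-136886450, minus strand): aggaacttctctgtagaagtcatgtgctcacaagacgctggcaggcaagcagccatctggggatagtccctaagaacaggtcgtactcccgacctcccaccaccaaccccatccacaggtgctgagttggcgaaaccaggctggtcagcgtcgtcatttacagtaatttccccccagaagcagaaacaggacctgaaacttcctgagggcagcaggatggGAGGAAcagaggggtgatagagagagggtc

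In the 250 bases before the RefSeq start, GCAAT on either strand was found for S100a8 and S100a9 and for none of the other 5 markers with a window (Cd68, C1qb, Mrc1, Lyz2 and Itgam). It is held by 23.1% of 32851 such windows. GAGGAA was found for Cd68, C1qb, Mrc1, Itgam and S100a8, that is for 5 of 7 markers, and is held by 23.3% of all windows. In S100a9 the GCAAT begins 43 bases before the start. A match of these letters is a description of the sequence and not a bound site.

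**Figure D2:**
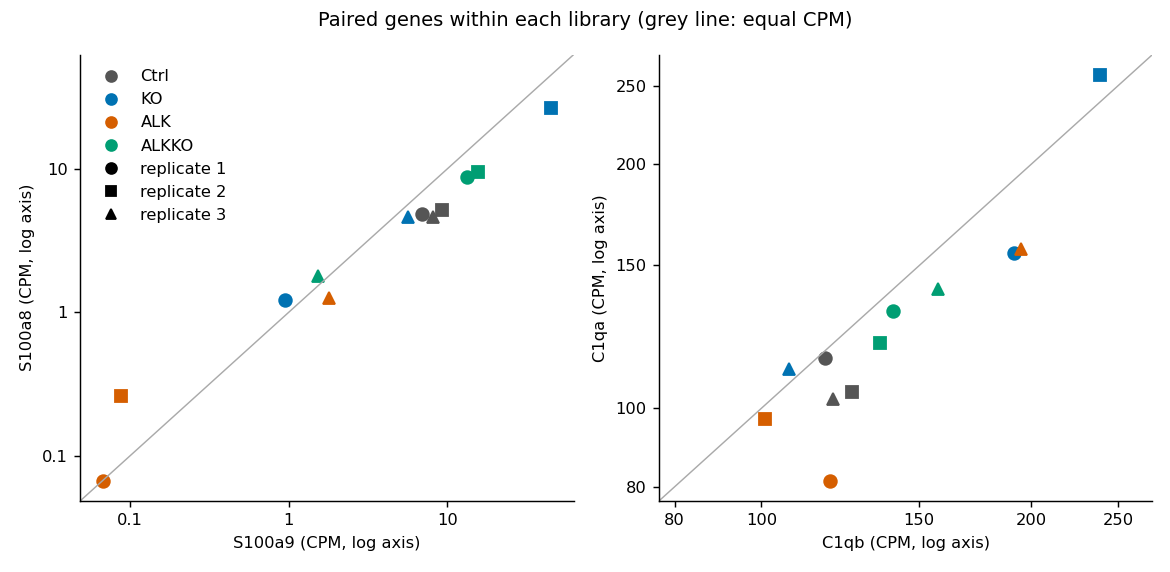
CPM of S100a8 against S100a9 (left) and of C1qa against C1qb (right) in the 12 libraries on log axes, colored by group with 1 symbol per replicate and a grey line at equal CPM. The granulocyte pair spans from ALK1 at 0.0671 CPM to KO2 at 26.5 and 45.1 CPM, whereas the complement pair stays between 81.4 and 258 CPM.

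Thymus without Dnmt1 held more macrophage transcripts than control thymus in several libraries, though 0 of the 9 genes was called in KO or ALKKO against Ctrl by edgeR. The background was low, with 0.0187% of all genes called in KO against Ctrl and 0.181% in ALKKO against Ctrl. All 9 log2 fold changes were positive in both comparisons, with medians of 0.98 in KO and 0.38 in ALKKO beside 0.04 and 0.01 over all genes. The comparisons share the Ctrl libraries. Markers of the same kinds of cells can move together, so the 9 genes are not separate results. All 6 tested red blood cell genes were positive too, with medians of 1.54 in KO and 1.39 in ALKKO. Their summed CPM was nonetheless below every Ctrl library in KO1 and ALKKO1. Of 11 tested thymocyte genes, 11 were negative in KO and 9 in ALKKO, with medians of -0.41 and -0.25. The part of such shifts in the marker levels was not tested. At an unadjusted p under 0.05, Csf1r, C1qa and Mrc1 passed in KO (4.02% of all genes passed upward) and 0 genes passed in ALKKO (2.21%). Without KO2, Mrc1 alone passed in KO, and also in ALKKO, at an unadjusted p under 0.05. DESeq2's Wald test called 0 of the 9 in both.

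Csf1r had 77.7, 339.5 and 58.4 CPM in KO and 78.9, 77.4 and 76.4 CPM in ALKKO, all above the highest Ctrl value of 54.7 CPM. Mrc1 had 48.0, 72.1 and 34.7 CPM in KO and 38.1, 43.8 and 32.6 CPM in ALKKO, all above 27.02 CPM. Adgre1 had 40.3, 64.7 and 28.3 CPM in KO and 29.1, 30.8 and 32.0 CPM in ALKKO, all above 24.5 CPM. These 3 genes were thus higher in all 6 Dnmt1-deleted thymus libraries than in all 3 Ctrl libraries, as were 2.76% of all genes tested. In the fits Csf1r was at 1.57 on the log2 scale (SE 0.60, adjusted p = 0.864, edgeR) in KO and 0.53 (SE 0.59, adjusted p = 0.9998, edgeR) in ALKKO. Mrc1 reached 0.98 (SE 0.27) and 0.55 (SE 0.26), with the same adjusted p.

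C1qa had 155, 258 and 112 CPM in KO and 132, 120.5 and 140.2 CPM in ALKKO. C1qb had 191, 239 and 107 CPM in KO and 140.0, 135 and 157 CPM in ALKKO. Lyz2 had 447, 1687 and 295 CPM in KO and 407, 391 and 418 CPM in ALKKO. For these 3 genes the ALKKO libraries lay above all Ctrl libraries while KO3 fell within or below the control range. Cd68 had 50.7, 68.1 and 36.8 CPM in KO and 43.9, 36.3 and 46.9 CPM in ALKKO, overlapping Ctrl in both. In all, 6 of the 9 genes had no overlap between ALKKO and Ctrl, beside 9.92% of all genes, and 3 of 9 had none between KO and Ctrl, beside 6.19%. These genes mark the same kinds of cells and were read in the same mice, so the counts are not of separate results. When only the ALKKO and Ctrl libraries were fitted, Csf1r alone of the 9 reached an adjusted p under 0.05, at 0.0328 (edgeR), with a log2 fold change too small to be called.

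ALKKO and KO were not told apart. The fitted log2 fold changes of all 9 genes in ALKKO against KO were negative, from -1.03 to -0.29, with an adjusted p of 0.9998 for each (edgeR), 0 at an unadjusted p under 0.05 and 0 by DESeq2's Wald test; 0.00623% of all genes were called. Without KO2 the log2 fold changes of the 6 macrophage genes and Lyz2 ran from -0.16 to 0.19, and those of S100a8 and S100a9 turned to 1.198 and 1.63. The interaction of NPM-ALK and Dnmt1 deletion, the difference between ALK against Ctrl and ALKKO against KO, called 0 of the 9 genes beside 8.93% of all genes, and DESeq2 called 0 as well. Mrc1 had the lowest adjusted p of the 9 in that test (log2 difference 0.94, SE 0.37, adjusted p = 0.134, edgeR) and was the 1 gene with an unadjusted p under 0.05, which 14.1% of all genes passed on the higher side. Without KO2 the interaction called 0 of the 9 as well, and S100a8 and S100a9, on the lower side, were the genes that passed the unadjusted threshold.

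**Figure D3:**
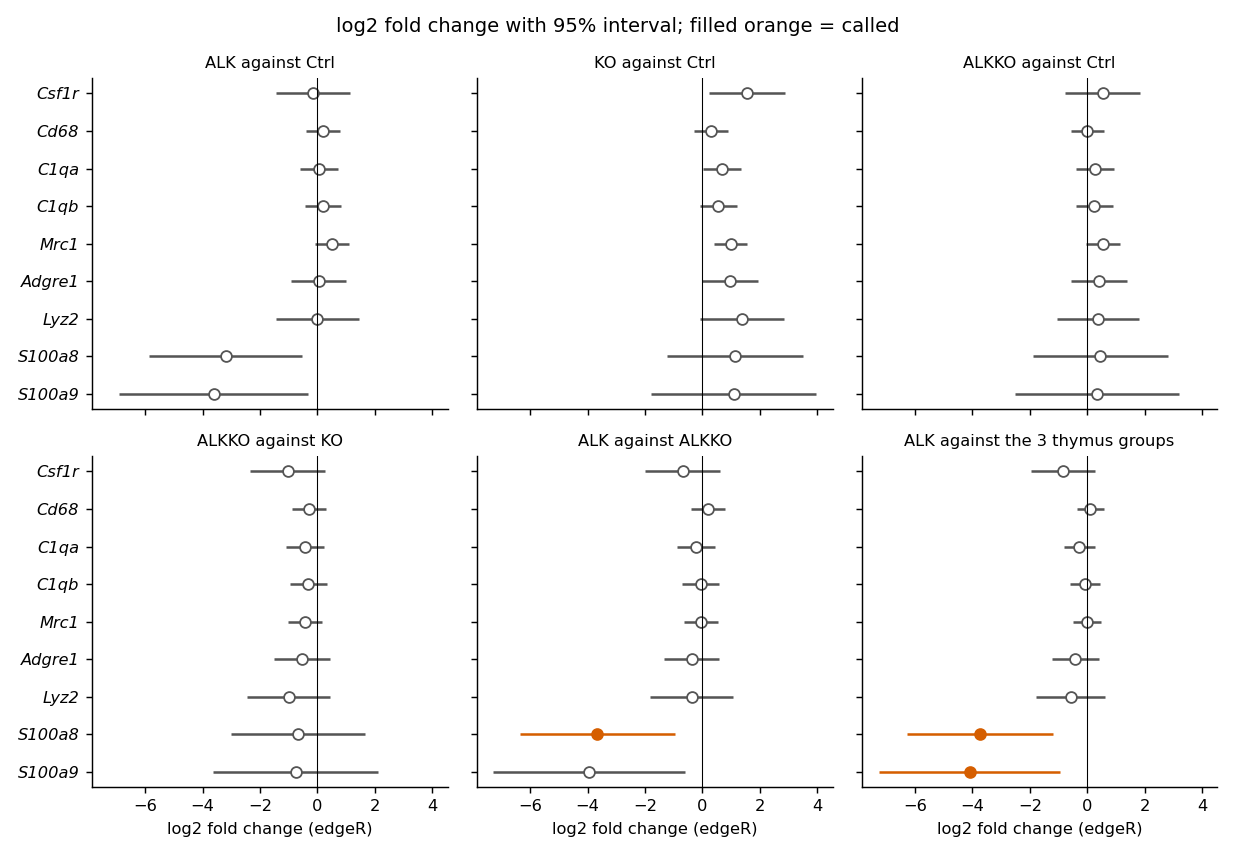
log2 fold change of the 9 detected genes in 6 comparisons (points) with the 95% interval of the edgeR fit (lines), filled orange where called. S100a8 and S100a9 are called lower in ALK against the 3 thymus groups and S100a8 in ALK against ALKKO, while the 6 macrophage genes and Lyz2 are called in none of the 6.

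KO2 was the highest of the 12 libraries for all 9 genes, as it was for 18.5% of all genes tested. The excess was uneven among the markers. Relative to the Ctrl mean, KO2 held 6.34 times as much Csf1r, 5.598 times as much S100a9, 5.43 times as much S100a8 and 5.41 times as much Lyz2, but 2.82 times as much Adgre1, 2.76 times as much Mrc1, 2.40 times as much C1qa, 1.97 times as much C1qb and 1.61 times as much Cd68. Without KO2, the log2 fold changes of the 6 macrophage genes and Lyz2 in KO against Ctrl ran from 0.05 to 0.67 with a median of 0.31, in place of 0.29 to 1.57 with a median of 0.95. Those of S100a8 and S100a9 turned from 1.14 and 1.09 to -0.73 and -1.28.

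Several genes outside the markers were high in KO2 alone, among them further macrophage genes and B-cell genes. The scavenger receptor Marco, found on macrophages of the splenic marginal zone and the lung, had 508 CPM in KO2 and 0.255 to 15.9 CPM in the other 11 libraries. Siglec1 (CD169), of macrophages that line lymphoid tissue, had 180.2 CPM in KO2 and at most 8.40 CPM elsewhere. The B-cell gene Ms4a1, at 383 CPM, was 39.6 times the Ctrl mean, and all 8 B-cell genes were highest in KO2. Genes of thymic epithelium were low there, with Psmb11 at 8.94 CPM against 72.6 to 138 CPM in the other 8 thymus libraries. The part of these in the marker levels of KO2 was not tested.

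**Figure D4:**
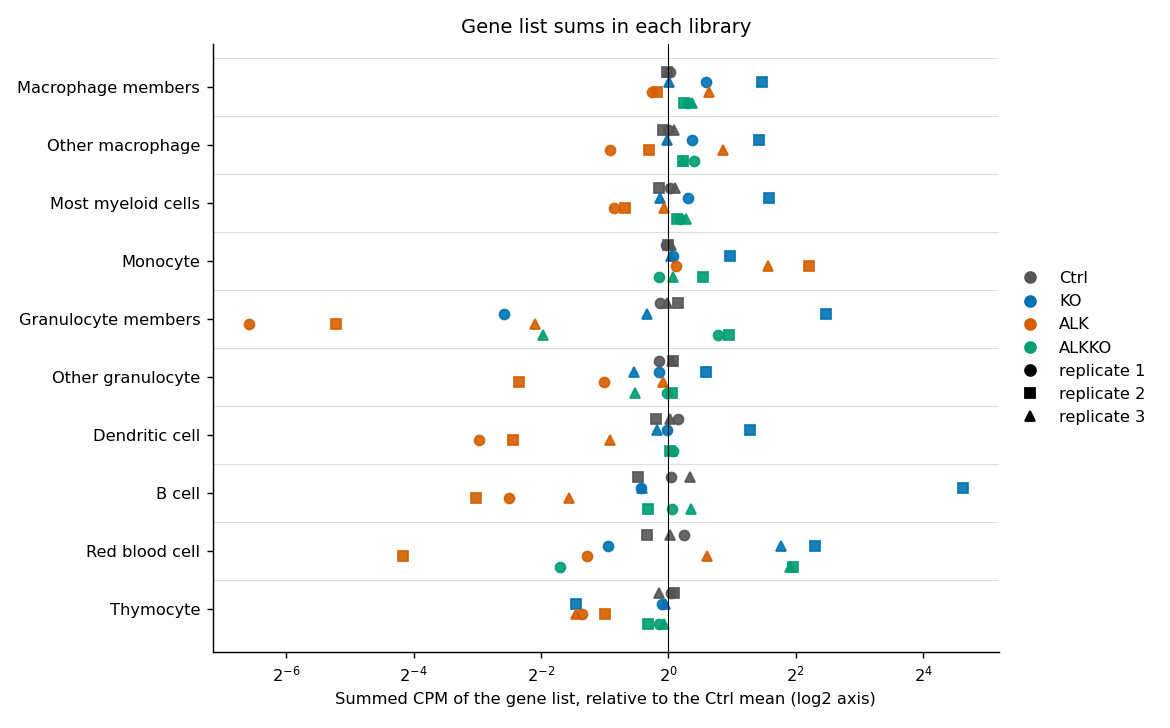
Summed CPM of 10 gene lists in each library relative to the mean of the 3 Ctrl libraries, on a log2 axis, colored by group with 1 symbol per replicate. KO2 (blue square) is at 2.78 times the Ctrl mean for the macrophage markers, 24.7 times for the B-cell genes and 0.365 times for the thymocyte genes.

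Further lists of myeloid genes widened this picture in the tumors. Of 20 other macrophage genes, all tested, 1 was called higher and 1 lower in ALK against Ctrl, with a median log2 fold change of -0.08. Among the 4 most abundant of this list, Apoe, a lipid carrier, had 726 ± 30.6 CPM in Ctrl and 865 ± 595 CPM in ALK, and Mpeg1, a pore-forming protein of phagocytes, had 159 ± 16.9 and 141 ± 89.6 CPM. C1qc, the third chain of C1q, had 109.9 ± 8.97 and 107 ± 48.0 CPM, and Axl, a receptor used to engulf dying cells, had 91.5 ± 9.93 and 52.1 ± 42.9 CPM. None of these 4 was called. Trem2, a lipid-sensing receptor of tissue macrophages, rose to 7.38, 11.5 and 27.3 CPM in ALK from 4.70, 3.05 and 5.54 CPM in Ctrl (log2 fold change 1.79, SE 0.60, adjusted p = 0.0456, edgeR). Timd4, a receptor for phosphatidylserine on resident macrophages, fell to 0.0671, 0.349 and 2.81 CPM from 13.1, 9.95 and 12.1 CPM (log2 fold change -3.44, SE 0.996, adjusted p = 0.0265, edgeR). Over the alternatives, 0 to 2 genes of this list were called higher and 0 to 3 lower. None was called higher without KO2, ALK2 or ALK3, and none lower without ALK2.

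Of 20 other granulocyte genes 16 were tested, and 6 were called lower and 0 higher in ALK against Ctrl, with a median log2 fold change of -2.24, or -1.83 with genes at the read floor set to their bound. Mpo, the myeloperoxidase of neutrophil granules, was at least 11.1-fold lower, and Camp, the antimicrobial peptide cathelicidin, at least 7.82-fold lower, with all tumors at or under 3 reads. Both bounds set the Ctrl mean against a floor of 3 reads per library. Hdc, the enzyme that makes histamine, fell from 10.97 ± 2.66 to 0.762 ± 0.619 CPM (log2 fold change -3.81, adjusted p = 0.00198, edgeR). The gelatinase Mmp9, the most abundant gene of the list, fell from 42.7 ± 12.2 to 8.12 ± 6.11 CPM (log2 fold change -2.39, adjusted p = 0.0171, edgeR). The granule proteins Ngp and Ltf were the other 2 called. Ly6g, a defining marker of mouse neutrophils, had at most 2.186 CPM in any library and was too low to be tested. Lcn2, which many other cells make as well, stood at 2.68, 12.1 and 54.3 CPM in the tumors against 4.02 ± 0.883 CPM in Ctrl, and did not pass against Ctrl (adjusted p = 0.0547, edgeR). In ALK against the 3 thymus groups, Lcn2 was called higher and 6 genes of this list lower. Of all genes, 25.7% were called there in either direction. Over the alternatives in ALK against Ctrl, 1 to 7 genes of this list were called lower, with 3 without ALK2 and 3 without any 1 of the Ctrl libraries. The median ran from -3.76 without ALK3 to 0.39 with at least 10 counts in every library, which left 3 genes.

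Monocyte genes split. Of 9 tested, 3 were called lower and 3 higher in ALK against Ctrl. Ly6c2, which marks classical monocytes, fell from 15.4 ± 6.08 to 1.01 ± 0.886 CPM (log2 fold change -3.93, adjusted p = 0.021, edgeR), and F13a1, a clotting factor subunit, fell from 129 ± 15.2 to 23.9 ± 5.599 CPM (log2 fold change -2.43, adjusted p = 0.00145, edgeR). Chil3 was the other gene called lower. The genes called higher are made by other cells too: Ace, the angiotensin-converting enzyme of vessels, had 131, 1133 and 245 CPM against 9.55 ± 1.37 CPM, the matrix proteoglycan Vcan had 5.90, 125 and 54.1 CPM against 4.20 ± 0.923 CPM, and fibronectin Fn1 had 173, 206 and 592 CPM against 104 ± 5.91 CPM. Beside them the fibroblast collagen Col1a1 was at 441 ± 235 CPM in ALK and 23.1 ± 7.83 CPM in Ctrl, and its part was not tested. Without ALK2 the calls fell to 1 higher and 1 lower, without ALK1 they were 3 and 1, and without KO2 they were 2 and 5.

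Among 15 tested genes used by most myeloid cells, 2 were called lower and 0 higher in ALK against Ctrl (median log2 fold change -0.35). Cebpa, a transcription factor needed for granulocyte formation, fell from 58.5 ± 25.4 to 9.43 ± 3.92 CPM (log2 fold change -2.63, adjusted p = 0.0178, edgeR). Itgb2, the integrin partner of Itgam, which lymphocytes also carry, fell from 323 ± 20.3 to 145 ± 42.6 CPM (log2 fold change -1.16, adjusted p = 0.00364, edgeR). Spi1, which encodes PU.1, stood at 9.53, 5.58 and 13.7 CPM in the tumors and at 14.7, 12.2 and 17.0 CPM in Ctrl and did not pass (adjusted p = 0.482, edgeR). Of this list, 4 genes were called lower without KO2 and 1 without ALK1 or ALK2, with 1 higher without KO2 or ALK1. All 10 dendritic cell genes had negative log2 fold changes, with 6 called lower, 0 higher and a median of -2.29. Cst3, an inhibitor of proteases, fell from 260.1 ± 16.5 to 62.0 ± 25.1 CPM, and Zbtb46, a transcription factor of classical dendritic cells, from 10.1 ± 1.67 to 2.003 ± 0.157 CPM. Without ALK3 the calls among dendritic cell genes rose to 8 with a median of -3.97, and over the alternatives they ran from 2 to 8. Of 4 tested mast cell and eosinophil genes, 3 were called lower, among them the mast cell protease Cpa3, from 5.41 ± 1.02 to 0.316 ± 0.283 CPM, while 1 was called lower without ALK2 and 2 without ALK3. The lists were compared with the background of 12% of all genes called lower and 8.41% called higher.

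**Figure D5:**
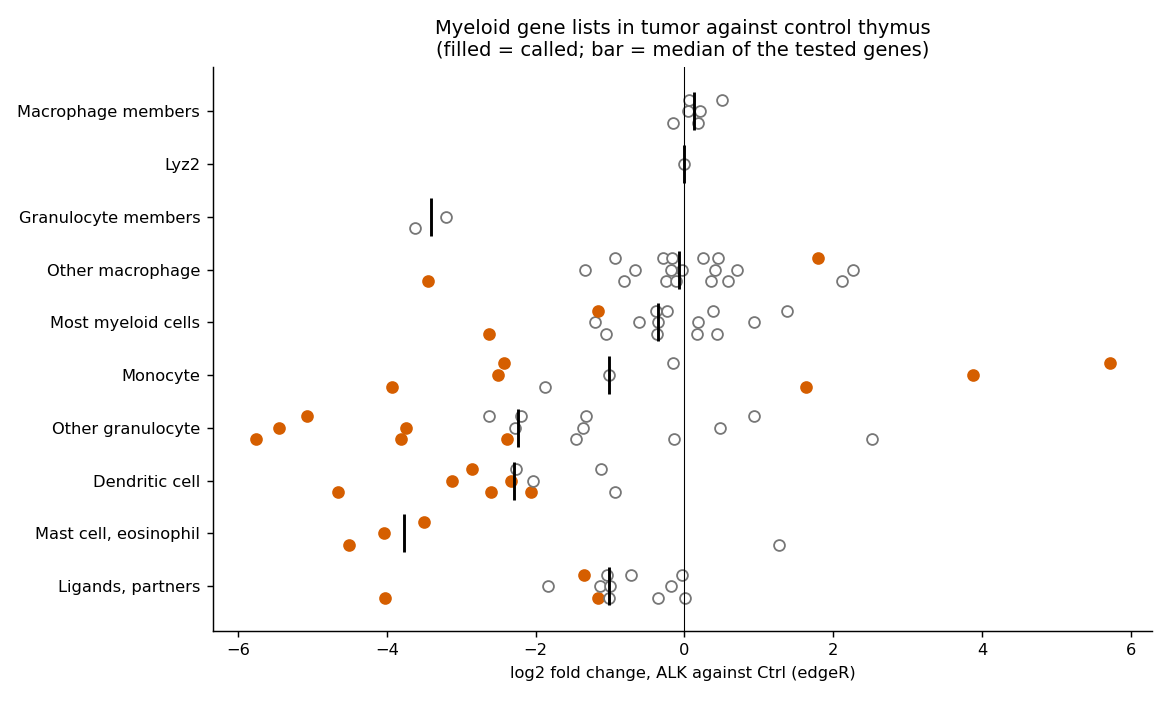
log2 fold change in ALK against Ctrl for each tested gene of the markers and of 7 further lists, filled orange where called, with a bar at the median of the tested genes. The macrophage markers and the other macrophage genes center near 0 (medians 0.12 and -0.08), while the granulocyte and dendritic cell lists have medians of -2.24 and -2.29.

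A further list held ligands, receptors and partners of the markers, and also chemokines such as Cxcl12 that are not partners of them. Of its 13 tested genes, 12 had negative log2 fold changes in the tumors. Of these, 3 were called lower and 0 higher in ALK against Ctrl, with a median log2 fold change of -1.01. Cxcl12, a chemokine that retains myeloid cells and lymphocytes, fell from 265, 324 and 303 CPM to 21.2, 15.7 and 17.7 CPM (log2 fold change -4.03, SE 0.16, adjusted p = 1.58e-06, edgeR). Icam1, a ligand of the Itgam integrin, fell from 89.2 ± 5.77 to 35.1 ± 19.5 CPM (log2 fold change -1.35, adjusted p = 0.0178, edgeR), and Itgb2 is the third. Without KO2 5 were called lower, and without ALK3 6. Of 12 tested thymic epithelial, fibroblast and vessel genes, 4 were called lower in ALK against Ctrl (Foxn1, Psmb11, Krt8 and Aire). In the same list 2 were called higher (Col1a1 and Col3a1), beside 12% of all genes called lower and 8.41% higher. The part of stromal cells in the fall of Cxcl12 was not tested. The ligands of Csf1r did not pass against Ctrl: Csf1 had 21.4, 14.6 and 27.8 CPM in Ctrl and 6.37, 8.46 and 16.9 CPM in ALK (adjusted p = 0.157, edgeR), and Il34 had 11.3, 10.7 and 12.1 CPM and 4.23, 10.8 and 2.03 CPM (adjusted p = 0.233, edgeR). Against the 3 thymus groups together, 7 of the list were called lower, beside 15.7% of all genes. Csf1 was among them (log2 fold change -1.33, adjusted p = 0.0363, edgeR), with Icam1, Itgb2, Cxcl12 and the complement proteases C1ra and C1s1. Tlr4, a receptor for S100a8 and S100a9, was the other one (log2 fold change -1.24, adjusted p = 0.0292, edgeR) at 4.29, 5.14 and 11.6 CPM in ALK.

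In the Dnmt1-deleted thymus groups 0 of the 85 tested genes of these 7 lists was called in KO against Ctrl, ALKKO against Ctrl or ALKKO against KO by edgeR, and 0 by DESeq2's Wald test. At an unadjusted p under 0.05, 16 were higher and 0 lower in KO, beside 4.02% of all genes higher. In ALKKO 4 were higher and 1 lower, beside 2.21% of all genes higher. The median log2 fold change of the 85 genes was 0.77 in KO and 0.32 in ALKKO. Without KO2, which left 87 tested, 5 were higher and 0 lower in KO at the unadjusted threshold and the median in KO was 0.02. Leaving out 1 of the 12 libraries gave 5 to 31 genes higher in KO at that threshold. The shares of all genes at that threshold are those of the fit with all 12 libraries. In ALKKO against KO the median of -0.31 became 0.20 without KO2. In ALK against ALKKO, 4 were called higher and 26 lower, beside 7.03% and 12.6% of all genes. Without ALK2 the counts were 3 higher and 15 lower, without KO2 5 and 36, and without ALK3 3 and 36. Trem2, Vcan, Fn1 and Ace were again the 4 called higher. Ccr2, the chemokine receptor of monocytes, had 25.8, 19.5 and 20.0 CPM in ALKKO and 5.23, 3.92 and 7.18 CPM in ALK (log2 fold change -1.998, adjusted p = 0.00345, edgeR).

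Genes whose profile over the 12 libraries lay nearest to the markers were found by the root-mean-square difference of centered log2(CPM + 1). For the mean of the 6 macrophage genes the nearest were Tmem176a (0.10), Fcer1g (0.12), C1qc (0.15), P2rx4 (0.16) and Tram2 (0.17), where the mean profile itself had an SD of 0.46. Of the 6 macrophage genes themselves, C1qa was nearest to their mean at 0.07 and Csf1r farthest at 0.42. Each of the 6 is part of that mean, which lowers its distance, so these values are not comparable with those of the other genes. For the mean of S100a8 and S100a9 the nearest were Ngp (0.41), Ltf (0.49), Igkv4-91 (0.62), Ighe (0.66) and Camp (0.68), where the profile had an SD of 1.52. Ngp, Ltf and Camp encode proteins of neutrophil granules. Igkv4-91 and Ighe are immunoglobulin genes, and the former belongs to a multigene family whose counts are uncertain. Igkv4-91 had 28.2 CPM in KO2 and at most 5.32 CPM elsewhere, and Ighe had 42.1 CPM in KO2 and at most 8.66 CPM elsewhere. KO2 was also the library with high B-cell genes, and its part in this likeness was not tested.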

How the data were processed

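RNA of 12 mice, 3 per group, was read as stranded poly(A) libraries of 50-nt single-end reads. According to the methods and the submitters' processing notes, reads were trimmed and mapped by STAR to mm10. The tables that the authors deposited hold HTSeq's count per gene, as whole reads without normalization. Further tools listed there are FastQC, Trim Galore, Picard 2.19.2 and DESeq2. The annotation release and strand setting are not given in the sources used here. Rows that name no gene took 43.8% to 55.3% of each table and were left out. Of 50600 IDs, 50376 matched GENCODE M21.

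The tests used edgeR 4.0.16 under R 4.3.3 on these counts (TMM, filterByExpr, 1 term per group over all 12 libraries, robust glmQLFit, glmQLFTest, Benjamini-Hochberg over 16052 genes). The common biological coefficient of variation was 0.436. Calls needed an adjusted p below 0.05 and a change of over 1 on the log2 scale. Standard errors came from the F statistic, and intervals are at 95%. Intervals and floors cover counting error only where they rest on reads. The labels do not say more of the mice than group, age and sex, so p-values measure the spread between these samples. No 2 libraries of a group agreed within sampling noise. The members and lists were chosen with earlier results of these data known. Named genes are all markers, the 4 most abundant genes of each further list and up to 4 called genes per list and comparison in order of p; the others named were chosen after their values were seen. The test was run on simulated counts. Alternatives were DESeq2 1.42.0 (Wald test, or its size factors in edgeR), no TMM factors, other count filters, age as a covariate, a replicate block, only the groups compared, no fold threshold and each library left out.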

Additional observations from a re-analysis of the deposited data

Results flagged for a closer look

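Of the 94 tested genes counted over the markers and the lists of myeloid genes and their partners, 10 had a difference between ALK against Ctrl and ALKKO against KO that passed the interaction test (edgeR's quasi-likelihood test, adjusted over all genes), beside 8.93% of all genes tested. The count of 10 lies near that share. Of the 85 genes of the further lists, 1 had a positive and 9 a negative difference. Without KO2, which left 87 tested, these counts were 1 and 19, without ALK3 1 and 18, and by DESeq2's Wald test 4 and 14. Without Ctrl1 they were 1 and 4. All are genes of the further lists and none is a marker, and Cxcl12 is a chemokine listed beside the partners. The log2 differences were -5.87 for Mpo (adjusted p = 0.0218), -4.30 for Hdc (adjusted p = 0.0116), -2.79 for F13a1 (adjusted p = 0.00983), -3.77 for Cxcl12 (adjusted p = 2.18e-05) and 5.84 for Ace (adjusted p = 0.0137). Among dendritic cell genes they were -3.25 for Xcr1 (adjusted p = 0.0379), -5.30 for Cd209a (adjusted p = 0.019) and -1.65 for Cst3 (adjusted p = 0.0419). Among mast cell genes they were -5.31 for Cpa3 (adjusted p = 0.0159) and -5.88 for Mcpt4 (adjusted p = 0.0394). In ALKKO against KO none of the 10 was called, where only 0.00623% of all genes were. The values of Mpo, Cd209a and Mcpt4 rest on at most 3 reads in each tumor library, so their size depends on the fit.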

How the results depend on the processing

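The 9 detected genes gave 0 calls under every alternative in KO against Ctrl, ALKKO against Ctrl, ALKKO against KO and the interaction. In ALK against Ctrl, 0 became 2 with DESeq2's Wald test, 1 with age as a covariate and 1 with only the groups compared. In ALK against ALKKO, 1 became 2 with DESeq2's Wald test or age, and 0 with no count filter, with at least 10 counts in every library (which removes S100a8 and S100a9), with the replicate block or with only the groups compared. In ALK against the 3 thymus groups, 2 became 1 with no count filter or the replicate block and 0 with at least 10 counts. Leaving out 1 library gave 0 to 2, 0 to 3 and 0 to 3 calls in these 3 comparisons. The causes were not tested, apart from the removal named. The main fits did not pair libraries by replicate number. Over 18 pairs with the same number, r of the deviations from the group means ran from -0.143 to 0.445, with 5 above 0.1 and a median of -0.029. Over the 36 other pairs it ran from -0.462 to 0.261, with 6 above 0.1 and a median of 0.012. The highest r, 0.445, was that of KO1 and ALKKO1. A shared handling of libraries with the same number was not tested.

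In ALK against Ctrl with age as a covariate, Cd68 was at -0.016, C1qa at -0.17, C1qb at -0.026, Adgre1 at -0.54 and Lyz2 at -0.72 on the log2 scale. The fit with age and the fit without ALK3 are not separate checks, as ALK3 came from the oldest mouse (31 wk). Without TMM factors C1qa was at -0.017, Adgre1 at -0.026 and Lyz2 at -0.064. With at least 10 counts C1qa was at -0.035, Adgre1 at -0.043 and Lyz2 at -0.087. With no filter Adgre1 was at -0.00455 and Lyz2 at -0.047, and with the replicate block they were at -0.044 and -0.038. Lyz2 was at -0.0397 with DESeq2's size factors, -0.0398 with its Wald test and -0.0101 with only the groups compared. In ALKKO against Ctrl, Cd68 was at -0.00412 with DESeq2's size factors, -0.00415 with its Wald test and -0.00871 with no filter. With age, Cd68 was at -0.037 against ALKKO and -0.15 against the 3 thymus groups, and Mrc1 at 0.027 against the latter.

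Leaving out 1 library turned the direction of further values. In ALK against Ctrl, Csf1r ran from -0.76 to 0.11, Cd68 from -0.12 to 0.37, C1qa from -0.28 to 0.24, C1qb from -0.15 to 0.35, Adgre1 from -0.77 to 0.33 and Lyz2 from -0.89 to 0.37. In ALK against ALKKO, Cd68 ran from -0.11 to 0.37, C1qb from -0.40 to 0.11 and Mrc1 from -0.24 to 0.15. Against the 3 thymus groups, Cd68 ran from -0.21 to 0.27, C1qb from -0.42 to 0.087 and Mrc1 from -0.20 to 0.18. In KO against Ctrl, S100a8 ran from -0.73 to 1.66 and S100a9 from -1.28 to 1.64. In ALKKO against Ctrl, Cd68 ran from -0.084 to 0.10 and S100a9 from -0.12 to 0.83. In ALKKO against KO, Csf1r ran from -1.42 to 0.19, Lyz2 from -1.39 to 0.13, S100a8 from -1.21 to 1.198 and S100a9 from -1.31 to 1.63. In the interaction, Csf1r ran from -0.37 to 1.24, Adgre1 from -0.24 to 0.88 and Lyz2 from -0.16 to 1.36.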
